A study of Mus musculus with 12 samples.

Results

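The proteasome subunit genes were described from RNA-seq libraries of murine mesenchymal stem cells (MSCs) grown from bone marrow, in which actin assembly had been disturbed with one of a pair of inhibitors or with both. The members were the 49 of 23358 gene rows whose symbol starts with Psm followed by a letter from a to g and a number, with pseudogene symbols left out. One of them, Psmc3ip, encodes a meiotic recombination factor that is named after a proteasome subunit and is no part of the proteasome. It is described apart at the end, and counts of members are therefore out of 48. The 12 libraries form 4 groups of 3: cells given cytochalasin D (CytoD), cells given CK666, cells given both (CytoD+CK666) and untreated cells (Ctrl). Cytochalasin D caps the growing ends of actin filaments, and CK666 blocks the complex that starts branched filaments. The treated cells had 24 h of exposure, beginning 1 day after plating. The labels give no vehicle for the Ctrl cells, and the doses, the mouse strain, sex and age, and whether the 3 replicates of a group came from separate animals, isolations or cultures are not stated in the labels. The p-values therefore measure the spread between libraries, which may be technical.

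The proteasome is the large protease that breaks down proteins tagged with ubiquitin. Its 20S core is a barrel of stacked rings, with alpha subunits in the outer rings and beta subunits in the inner ones. Psmb5, Psmb6 and Psmb7 carry the cutting sites. The 19S cap sits on the end of the barrel, where the Psmc ATPases unfold the substrate and the Psmd subunits bind and remove ubiquitin. Under interferon gamma, cells replace the catalytic subunits by Psmb8, Psmb9 and Psmb10, which makes the immunoproteasome, and the Psme1 and Psme2 proteins form a ring that opens the core without a cap. In MSCs the immunoproteasome belongs to the machinery that prepares peptides for display on class I molecules.

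The promoters of 4 members are shown because the results turn on these genes: Psmb9 and Psme1 as immune members, Psmb5 as a constitutive catalytic subunit and Psmd8 as the cap subunit with the widest change under CytoD. Each runs from 200 bases before the annotated start to 25 bases after it, in RefSeq sequence of the build GRCm38.p6. Psmb9 (chr17:34187306-34187530), Psmb5 (chr14:54617971-54618195) and Psmd8 (chr7:29180649-29180873) lie on the minus strand, and Psme1 (chr14:55578294-55578518) on the plus strand. Capitals mark matches, on either strand, to the core of the antioxidant response element bound by NRF factors (TGACNNNGC), to a motif like the interferon-stimulated response element (GAAA, any 2 bases and GAAA again) and to the GC box of the Sp1 family (GGGCGG).
Psmb9: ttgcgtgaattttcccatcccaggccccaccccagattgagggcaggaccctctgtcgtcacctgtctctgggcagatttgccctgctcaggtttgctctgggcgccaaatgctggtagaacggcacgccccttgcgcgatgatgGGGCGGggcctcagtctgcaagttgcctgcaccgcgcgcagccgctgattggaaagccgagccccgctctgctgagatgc
Psme1: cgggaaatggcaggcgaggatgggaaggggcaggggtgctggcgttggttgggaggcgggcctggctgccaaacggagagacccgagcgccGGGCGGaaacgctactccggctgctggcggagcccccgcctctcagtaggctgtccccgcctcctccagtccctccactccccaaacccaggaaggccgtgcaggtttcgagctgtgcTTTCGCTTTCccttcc
Psmb5: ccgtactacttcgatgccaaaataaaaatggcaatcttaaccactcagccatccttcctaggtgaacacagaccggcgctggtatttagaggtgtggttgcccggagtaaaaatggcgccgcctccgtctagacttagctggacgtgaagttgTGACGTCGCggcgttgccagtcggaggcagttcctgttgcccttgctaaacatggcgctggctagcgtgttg
Psmd8: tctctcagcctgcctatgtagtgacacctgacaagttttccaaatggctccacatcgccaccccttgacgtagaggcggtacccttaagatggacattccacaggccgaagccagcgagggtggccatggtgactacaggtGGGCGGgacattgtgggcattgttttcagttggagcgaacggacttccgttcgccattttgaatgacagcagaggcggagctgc

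In these windows Psmb9 had a GC box 55 bases before its start and Psmd8 one 59 bases before its start. Psmb5 had an antioxidant response core 47 bases before its start. Psme1 had a GC box 109 bases before the start and an interferon-type match 9 bases after it. None of these matches overlapped another. The windows of Psmb9 and of Tap1, the peptide transporter gene on the opposite strand, shared 275 of their 300 bases. RefSeq windows of 300 bases were found for 40 of the 48 genes, 43 windows in all. Psma8, Psmb1, Psmb2, Psmb7, Psmc3, Psmd3, Psmd7 and Psmg2 had none in the table used. The GC box was in 55.8% of the 43 windows and in 35.7% of all 32851 windows. The interferon-type motif was in 11.6% against 3.44%, and the antioxidant core in 14.0% against 12.4%. A match is only a stretch of letters, and the motifs were chosen after their shares had been seen. A further motif searched, whose share was lower in the members' windows than in all windows, is not described here.

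Gene counts summed to between 48930210 and 69269716 per library, and 13534 genes passed the filter on low counts, all 49 members among them. Levels are given as CPM, counts relative to the TMM-adjusted size of the library. The members took 0.428% to 0.618% of the counts of a library, the highest share being that of CK666 replicate 3. The summed list of 10 marrow stromal markers, 9 of which were tested, was at 22061 to 24653 CPM in CytoD, 8623 to 9899 CPM in CK666, 8104 to 8449 CPM in CytoD+CK666 and 14105 to 17345 CPM in Ctrl libraries. Cxcl12 and Col1a1 made up most of it, while Nt5e, Lepr and Eng stayed below 3 CPM in the mean of each group. Thy1 did not pass the filter. The sum hides opposite directions. Mean levels in CytoD and Ctrl were 18052 and 8331 CPM for Cxcl12, but 3312 and 5674 CPM for Col1a1 and 23.4 and 69.1 CPM for Ly6a. Of the 9 tested, 4 were called higher and 2 lower in CytoD, where 19.1% of all genes were higher and 18.9% lower. The defining leukocyte and macrophage genes Ptprc, Emr1 and Tyrobp were at 0 in all libraries. Other genes of the macrophage list were detected at low levels. Mean levels in CytoD and Ctrl were 5.33 and 1.56 CPM for Lyz2 and 3.64 and 4.31 CPM for Cd14. They were 2.36 and 3.05 CPM for Csf1r and 1.12 and 1.16 CPM for Cd68. The summed macrophage list of 10 rows, 5 of which were tested, was at 12.3 to 13.4 CPM in CytoD, 7.72 to 10.2 CPM in CK666, 8.21 to 9.09 CPM in CytoD+CK666 and 9.68 to 10.99 CPM in Ctrl libraries. In such bulk RNA, fewer cells of a type and less RNA per cell cannot be told apart.

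Across the proteasome genes, CK666 replicate 3 differed from both other libraries of its group. Its log2 level exceeded the mean of CK666 replicates 1 and 2 in 45 of 48 members, by a median of 0.34. The same difference was 0.18 over 5725 genes of like length and 0.01 over all genes tested, and it correlated with the log10 of gene length across genes at r = -0.46, with genes not being independent replicates. Proteasome transcripts are short, with a median length of 1286.5 bases against 2828.5 over all tested genes. The counts and the called members of CK666 against Ctrl are therefore given below with and without this library. Since the fit shares one estimate of spread over the 4 groups, leaving it out also changes the counts of comparisons it has no part in. Counts with a correction for gene length stand beside those of CK666, and RNA quality was not tested.

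**Figure D1:**
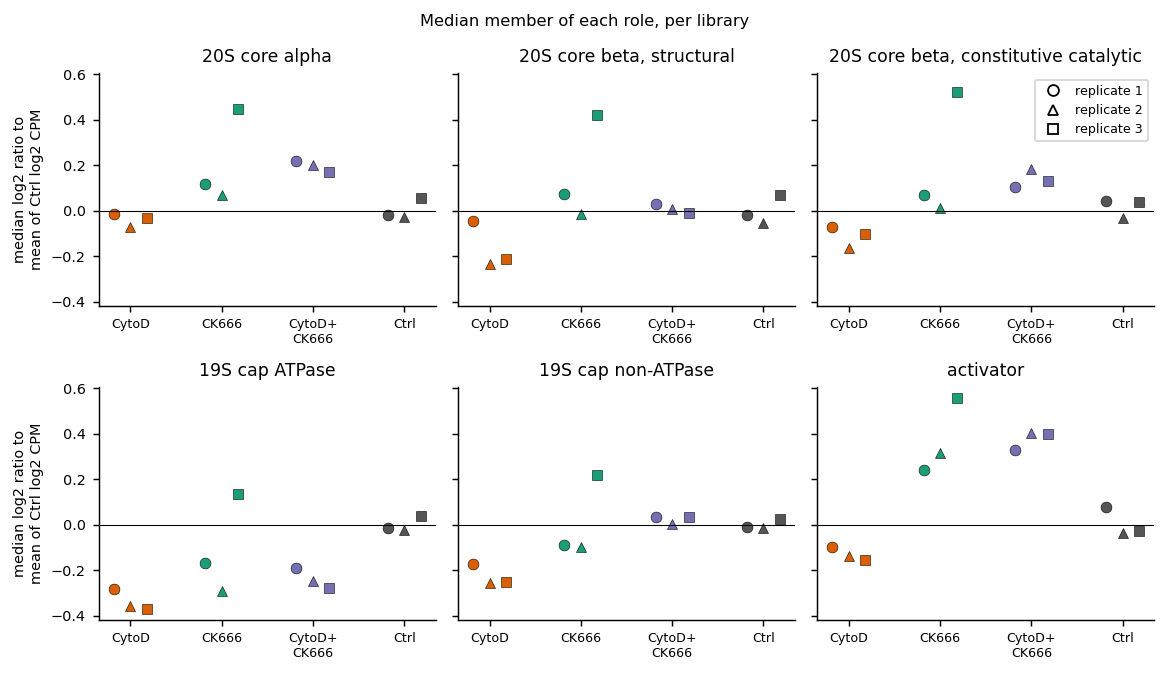
Median member of 6 roles in each of the 12 libraries, as log2 ratio to the mean log2 CPM of the 3 Ctrl libraries (y axis), by group (x axis), with symbols for replicates. The square for CK666 replicate 3 stands above both other CK666 libraries in all 6 panels, and in the 2 cap panels every CytoD library lies below every Ctrl library.

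Within Ctrl cells, levels per kilobase of transcript ran from 206 ± 8.73 CPM per kb for Psmb1, a structural beta subunit, to 0.0667 ± 0.0199 CPM per kb for Psmb11, the catalytic subunit of the thymus (SD, n = 3). The median over all genes tested was 7.59 CPM per kb. Alpha subunits had a median level of 106.8 CPM per kb, structural beta subunits 136.7 and constitutive catalytic subunits 143.9. Cap ATPases had a median of 84.9 CPM per kb and cap non-ATPases one of 78.2, so that core and cap genes were on a like scale. The assembly chaperones of the core, which guide ring formation and leave the finished particle, had a median of 13.9 CPM per kb and those of the cap 20.6. Neighbours in the order often overlapped in their ranges: Psmb5 at 157 ± 7.78 CPM per kb could not be set above Psmb4 at 157 ± 4.91, nor Psma6 at 146.0 ± 5.01 above Psma3 at 144.9 ± 7.38. Psma8, the alpha subunit of the testis proteasome, stood far below the other alpha subunits at 3.69 ± 0.41 CPM per kb.

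The immunoproteasome subunits were minor beside their constitutive counterparts in Ctrl cells. Psmb10 had 11.97 ± 2.31, Psmb8 had 5.76 ± 1.47 and Psmb9 had 3.26 ± 0.42 CPM per kb, against 144 ± 4.76 for Psmb7, 157 ± 7.78 for Psmb5 and 80.3 ± 3.91 for Psmb6. The activator genes were high by contrast, Psme2 at 70.0 ± 3.72 and Psme1 at 63.8 ± 6.95 CPM per kb, with ranges that overlapped each other. Psmb11 had 12 to 20 counts per library, so its level is imprecise.

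CytoD lowered most genes of the 19S cap. By the quasi-likelihood test of edgeR, with p-values adjusted by Benjamini and Hochberg's method, 12 of 17 cap genes fell in CytoD against Ctrl cells and none rose, 5 of 6 ATPases and 7 of 11 non-ATPases. All 17 fitted log2 changes were below 0, with a median of -0.27. None of the 15 core genes was called in either direction. Over all 48 members, 1 rose and 13 fell, or 29.2%, where the background over all tested genes was 37.9% called, 19.1% higher and 18.9% lower. The members' share of falls, 27.1%, stood somewhat above that background, and that of rises, 2.08%, below it. The median change was -0.13 over the members and 0.02 over all tested genes.

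Psmd8, a lid subunit of the cap, was at 196.9, 184.0 and 183.1 CPM in CytoD libraries, against 264.3, 271.4 and 283.2 CPM in Ctrl libraries. The groups did not overlap, and its level fell 1.45-fold (log2 change -0.54 ± 0.10 SE, adjusted p = 0.00138). Psmc5 had 65.2, 58.5 and 56.9 CPM in CytoD libraries, against 80.9, 84.1 and 83.4 CPM in Ctrl libraries. This ATPase of the ring that unfolds substrates was lower in each CytoD library than in any Ctrl library, by 1.38-fold (log2 change -0.46 ± 0.10, adjusted p = 0.00237). Psmc3, another ATPase of the ring, had 152.1, 139.6 and 140.8 CPM in CytoD libraries, against 193.4, 192.6 and 206.3 CPM in Ctrl libraries, again with no overlap (log2 change -0.45 ± 0.09, adjusted p = 0.00157). Psmd2, the scaffold on which ubiquitin receptors dock, was at 347.4, 332.8 and 333.4 CPM in CytoD libraries, against 413.3, 427.9 and 426.8 CPM in Ctrl libraries. It was 1.25-fold lower (log2 change -0.32 ± 0.06, adjusted p = 0.000821).

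The other cap genes that fell were Psmc1, Psmc2 and Psmc4 among the ATPases and Psmd1, Psmd3, Psmd11, Psmd13 and Psmd14 among the non-ATPases. Psmd14 encodes the enzyme that cuts ubiquitin off the substrate. Their log2 changes were between -0.18 for Psmd11 and -0.36 for Psmc4, and in each of these genes all CytoD libraries lay below all Ctrl libraries. The one ATPase gene that did not pass, Psmc6, had 136.4, 125.5 and 135.8 CPM in CytoD libraries, against 136.3, 133.8 and 139.2 CPM in Ctrl libraries. Its groups overlapped. The weakest of these calls was Psmd13, with an adjusted p of 0.0497, and it was lost in 12 of 20 other settings. Those of Psmc1 and Psmd11 were lost in 6, that of Psmd14 in 5 and those of Psmc2 and Psmd3 in 4. Those of Psmc4 and Psmd1 were lost in 3, and those of Psmc3, Psmc5, Psmd2 and Psmd8 in 0.

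How many members passed depended on single libraries. Without CK666 replicate 3, CytoD called 26 members, 2 higher and 24 lower, with all 11 cap non-ATPases lower and 6 of 15 core genes lower, where the background over all genes was 50.4% called. A count of 4 was left without Ctrl replicate 3 (background 28.1%), 8 without Ctrl replicate 1 (31.4%) and 9 without Ctrl replicate 2 (29%). It was 5 without CytoD replicate 2 (28.6%) or CytoD replicate 3 (28.2%). A fit on these 2 groups alone called 25, where the background was 56%. With the gene length correction 23 were called, 2 higher and 21 lower, against a background of 45.2%.

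**Figure D2:**
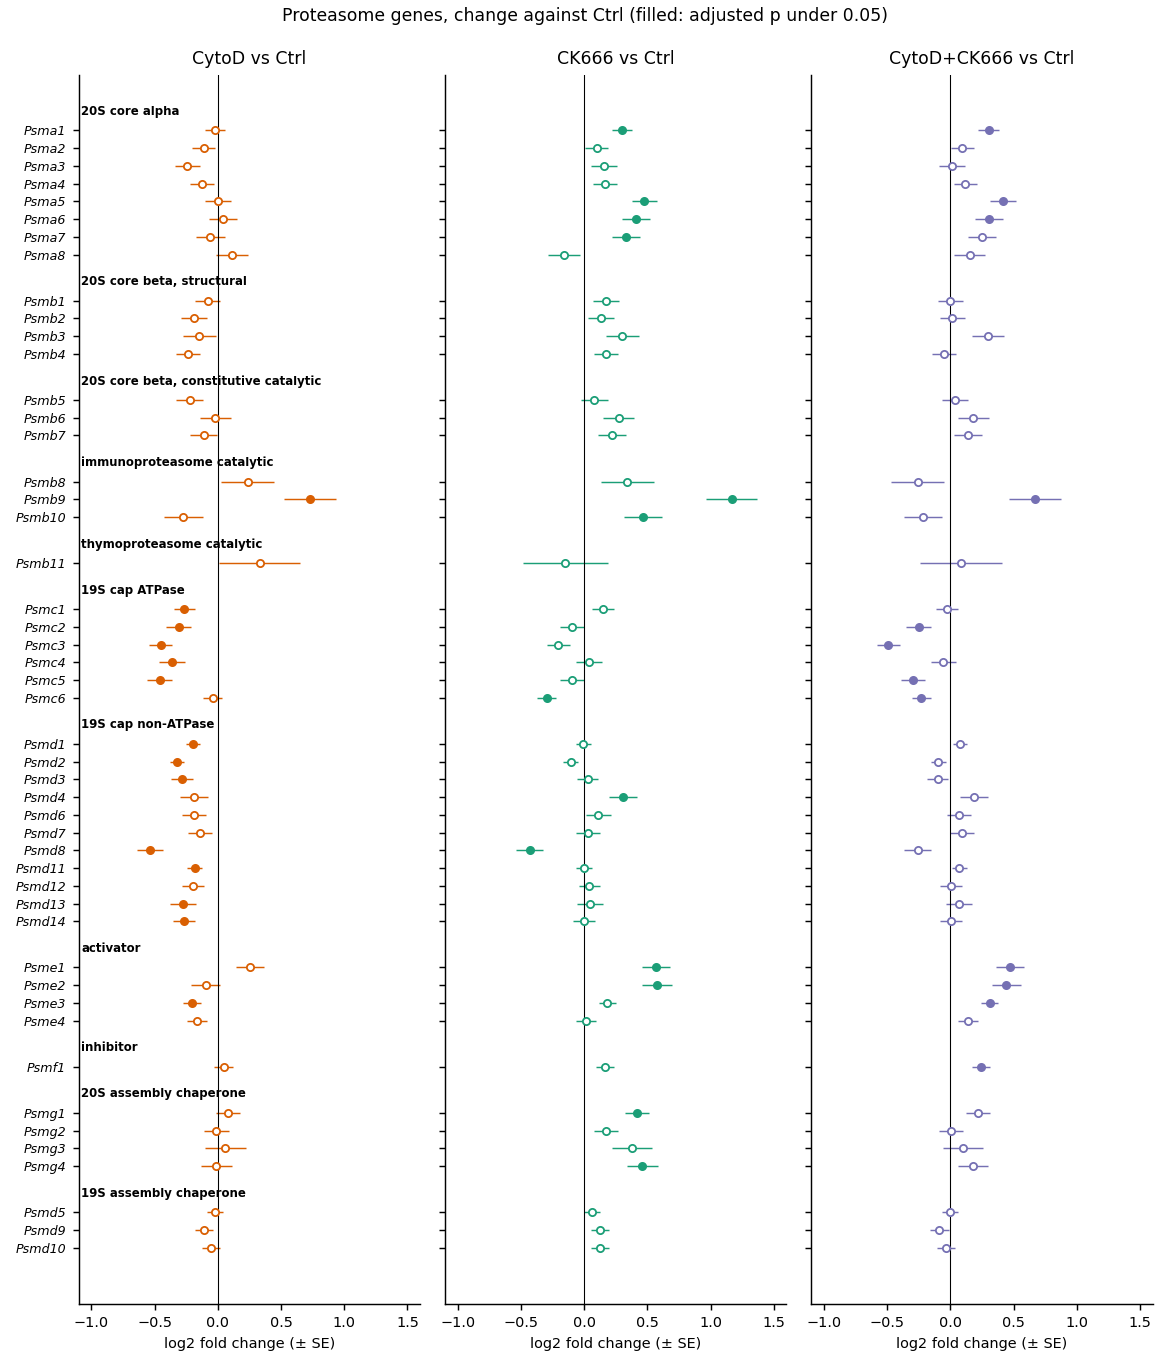
Log2 fold change against Ctrl with its standard error (x axis) for the 48 members, grouped by role (y axis), for CytoD, CK666 and CytoD+CK666; filled points passed an adjusted p of 0.05. Cap genes lie left of 0 under CytoD, from -0.04 to -0.54, and Psmb9 lies farthest to the right in all 3 panels.

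Under CK666, 4 of 8 alpha genes, 2 of 4 core chaperones, 2 of 3 immunoproteasome genes and 2 of 4 activator genes rose. In CK666 against Ctrl cells 13 members were called, 11 higher and 2 lower, or 27.1% against a background of 41.1% (22.5% higher, 18.7% lower). The members' share of calls was below the background, and their share of rises, 22.9%, was near the background. The members' median change was 0.14, against 0.03 over all genes. With the gene length correction 15 members were called, 7 higher and 8 lower, against a background of 44.7%, and their median change was -0.03. In the uncorrected fit none of the 7 constitutive beta genes was called, and of 17 cap genes 1 rose and 2 fell.

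Psma5 had 104.9, 102.7 and 137.5 CPM in CK666 libraries, against 84.2, 77.7 and 86.5 CPM in Ctrl libraries. This alpha-ring subunit was higher in every CK666 library (log2 change 0.47 ± 0.10, adjusted p = 0.00218), and it remained called at 0.28 without CK666 replicate 3. Psma6 was at 169.1, 170.6 and 240.5 CPM in CK666 libraries, against 140.0, 147.0 and 149.7 CPM in Ctrl libraries (log2 change 0.41 ± 0.11, adjusted p = 0.0116). It also stayed higher without that library, at 0.18. Psma1 and Psma7 rose by 0.30 and 0.33 on the log2 scale, and both calls were lost without CK666 replicate 3, at 0.16 and 0.10. Psmg1 and Psmg4, chaperones that help to build the alpha ring, rose by 0.42 and 0.46 and were at 0.27 and 0.36 without that library, still called. With the length correction Psma5 (0.28), Psma6 (0.17) and Psmg1 (0.19) stayed called, and Psma1, Psma7, Psmg4, Psmd4 and Psmb10 did not. Psmd4, a ubiquitin receptor, rose by 0.31, and its call was lost at 0.09.

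The falls under CK666 were in the cap. Psmd8 had 191.4, 180.7 and 234.8 CPM in CK666 libraries, against 264.3, 271.4 and 283.2 CPM in Ctrl libraries, and was 1.35-fold lower with no overlap (log2 change -0.43 ± 0.10, adjusted p = 0.00528). Psmc6, the ATPase that CytoD left uncalled, was at 116.3, 101.2 and 115.8 CPM in CK666 libraries, against 136.3, 133.8 and 139.2 CPM in Ctrl libraries. It fell 1.23-fold (log2 change -0.30 ± 0.07, adjusted p = 0.00595), and here CK666 replicate 3 lay within the range of the other CK666 libraries; without it the change was -0.37, still called.

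Leaving out CK666 replicate 3 turned the balance of calls. Then 15 members were called, 7 higher and 8 lower, against a background of 42.4% (19.4% higher, 23.0% lower), with a median change of -0.01. Of the 13 original calls 9 were kept in the same direction, 7 higher and 2 lower, and the log2 change was smaller in 46 of 48 members. All 8 genes that fell were cap genes: 4 of 6 ATPases (Psmc2, Psmc3, Psmc5 and Psmc6) and 4 of 11 non-ATPases (Psmd2, Psmd7, Psmd8 and Psmd14). Psmc3 went to -0.36 (adjusted p = 0.000566) and Psmd8 to -0.60. Without CK666 replicate 2, 22 members were called, against a background of 41.6%.

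**Figure D3:**
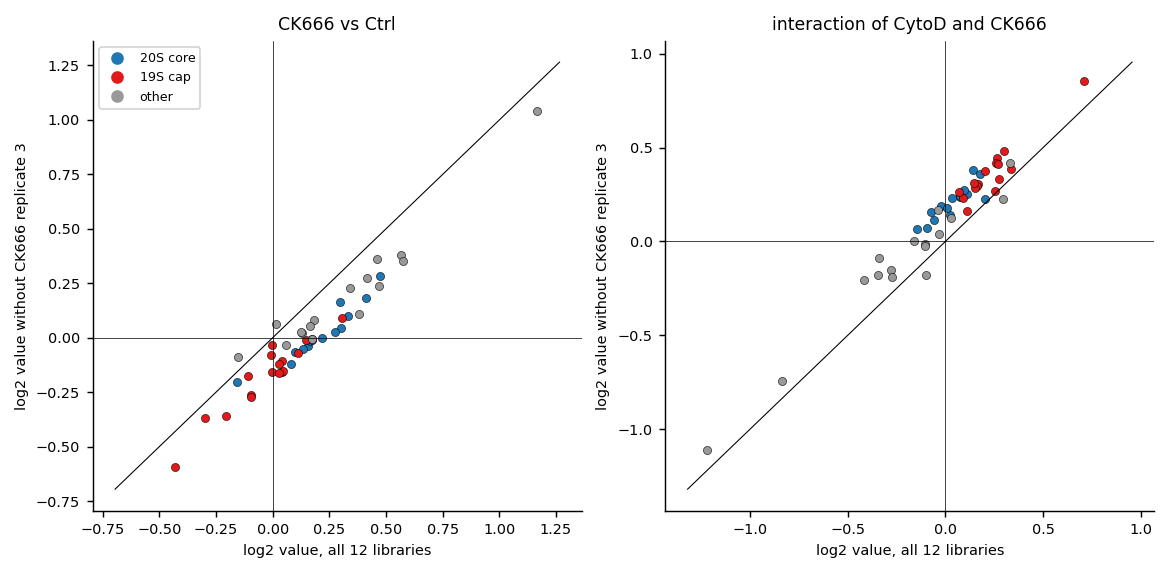
Log2 value of each of the 48 members from all 12 libraries (x axis) and without CK666 replicate 3 (y axis), for CK666 against Ctrl (left) and for the interaction of CytoD and CK666 (right), with core, cap and other members in separate colours and the line of equal values. Points lie below the line in 46 of 48 members on the left, and cap genes lie above it on the right.

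With both compounds, 4 of 6 cap ATPases fell, and 3 of 8 alpha genes and 3 of 4 activator genes rose. In CytoD+CK666 against Ctrl cells 12 members were called, 8 higher and 4 lower, or 25% against a background of 46.0% (24.4% higher, 21.6% lower). All 4 falls were ATPases of the cap, Psmc2, Psmc3, Psmc5 and Psmc6, and none of the 11 cap non-ATPases was called. The call of Psmc2 was lost in 11 of 20 other settings, that of Psmc5 in 4, that of Psmc6 in 3 and that of Psmc3 in 0. Psmc3 had 149.7, 137.8 and 133.7 CPM in CytoD+CK666 libraries, against 193.4, 192.6 and 206.3 CPM in Ctrl libraries, with no overlap (log2 change -0.49 ± 0.09, adjusted p = 0.000608). The rises were Psma1 (0.30), Psma5 (0.42), Psma6 (0.30), Psmb9 (0.67), Psme1 (0.47), Psme2 (0.44), Psme3 (0.31) and Psmf1 (0.24), each with all treated libraries above all Ctrl libraries. The call of Psma6 was lost in 13 of 20 other settings, with an adjusted p of up to 0.198 in edgeR. Psmf1 encodes an inhibitor that binds the free core. It had 58.2, 61.3 and 53.6 CPM in CytoD+CK666 libraries, against 50.9, 47.9 and 47.7 CPM in Ctrl libraries. Psma5 was at 105.5, 114.0 and 111.8 CPM in CytoD+CK666 libraries, against 84.2, 77.7 and 86.5 CPM in Ctrl libraries. The count was 20, 14 higher and 6 lower, without CK666 replicate 3, where the background was 56.3%. It was 7 without CytoD+CK666 replicate 2 (37.3%) or Ctrl replicate 2 (37.9%), and 6 without Ctrl replicate 3 (37.5%).

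Of the immunoproteasome subunits, Psmb9 was called in all 3 treatments, Psmb10 under CK666 and Psmb8 in none. The genes were not tested against each other. Psmb9 encodes the subunit that replaces Psmb6. It had 4.81, 3.83 and 4.405 CPM in CytoD libraries, 6.74, 4.37 and 6.54 CPM in CK666 libraries and 5.32, 3.78 and 3.46 CPM in CytoD+CK666 libraries, against 3.01, 2.49 and 2.37 CPM in Ctrl libraries. Every treated library exceeded every Ctrl library. These levels rest on 196 to 418 counts in treated and 118 to 148 counts in Ctrl libraries. The change was 1.65-fold under CytoD (log2 0.73 ± 0.21, adjusted p = 0.014), 2.24-fold under CK666 (1.17 ± 0.20, adjusted p = 0.000591) and 1.59-fold under both (0.67 ± 0.20, adjusted p = 0.0166). All 3 stayed called without CK666 replicate 3, at 0.72, 1.04 and 0.64. The call under CytoD was lost without Ctrl replicate 3 (edgeR adjusted p = 0.0622). That under both was lost without CytoD+CK666 replicate 1, Ctrl replicate 2 or Ctrl replicate 3, at an edgeR adjusted p of up to 0.0777.

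Psmb10, which replaces Psmb7, was at 12.5, 12.95 and 12.3 CPM in CytoD libraries, 20.2, 16.8 and 26.1 CPM in CK666 libraries and 13.2, 13.3 and 12.6 CPM in CytoD+CK666 libraries, against 18.5, 12.8 and 14.3 CPM in Ctrl libraries. The CK666 and Ctrl ranges overlapped, although the gene passed the test there (log2 change 0.47 ± 0.15, adjusted p = 0.0245), and that call was lost at 0.24 without CK666 replicate 3. Its log2 changes under CytoD (-0.27) and under both (-0.22) did not pass. Psmb8, which replaces Psmb5, had 9.66, 6.78 and 8.48 CPM in CytoD libraries, 10.7, 6.34 and 9.76 CPM in CK666 libraries and 6.29, 5.87 and 5.51 CPM in CytoD+CK666 libraries, against 8.999, 5.46 and 6.69 CPM in Ctrl libraries. All groups overlapped the Ctrl range, and none of its log2 changes of 0.23, 0.34 and -0.26 passed. That of CK666 was 0.23 without CK666 replicate 3. Replicate 1 was the highest library of each of the 4 groups for Psmb8 and for Psmb9, and Psmb8 was above the Ctrl library of the same number in all 3 CytoD and all 3 CK666 libraries. The labels give no shared source for libraries of the same number, so this order is no paired result. Psmb8 lies 10864 bases from Psmb9 on chromosome 17.

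The constitutive counterparts were not called in any treatment against Ctrl in the main fit, but some calls appeared in other settings. Under CytoD, Psmb5 was called lower in 3 of 20 other settings and Psmb7 in 1. Psmb6 was called higher under CK666 in 1 and under both compounds in 2, and Psmb7 under CK666 in 1. Psmb5 was called lower under CK666 once gene length was corrected for (log2 change -0.18, edgeR adjusted p = 0.0177). Psmb5 had 123.6, 115.1 and 112.6 CPM in CytoD libraries, 128.4, 130.5 and 174.5 CPM in CK666 libraries and 144.8, 142.6 and 132.9 CPM in CytoD+CK666 libraries, against 131.6, 134.2 and 144.4 CPM in Ctrl libraries. CytoD libraries lay below the Ctrl range, with a log2 change of -0.22 that missed the threshold, while CK666 replicate 3 was the one CK666 library above it. Psmb6 was at 84.9, 78.05 and 83.2 CPM in CytoD libraries, 90.7, 83.7 and 127.2 CPM in CK666 libraries and 91.8, 98.4 and 92.7 CPM in CytoD+CK666 libraries, against 85.6, 78.5 and 85.4 CPM in Ctrl libraries. Psmb7 was at 132.5, 124.6 and 129.9 CPM in CytoD libraries, 146.3, 140.7 and 199.8 CPM in CK666 libraries and 149.9, 158.0 and 152.5 CPM in CytoD+CK666 libraries, against 144.7, 136.1 and 137.5 CPM in Ctrl libraries. The log2 changes under CK666 were 0.08 for Psmb5, 0.27 for Psmb6 and 0.22 for Psmb7, and without CK666 replicate 3 they were -0.12, 0.03 and -0.0003, none of them called. As a ratio per kilobase within a library, Psmb9 stood at 6.30% to 7.28% of Psmb6 in CytoD, 6.61% to 9.55% in CK666 and 4.80% to 7.46% in CytoD+CK666, against 3.56% to 4.53% in Ctrl libraries. In this ratio CK666 replicate 3 was the lowest of its group. Psmb8 over Psmb5 was 4.19% to 5.57% in CytoD, 3.46% to 5.92% in CK666 and 2.93% to 3.09% in CytoD+CK666, against 2.90% to 4.87% in Ctrl libraries, so that each treated range overlapped the Ctrl range.

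**Figure D4:**
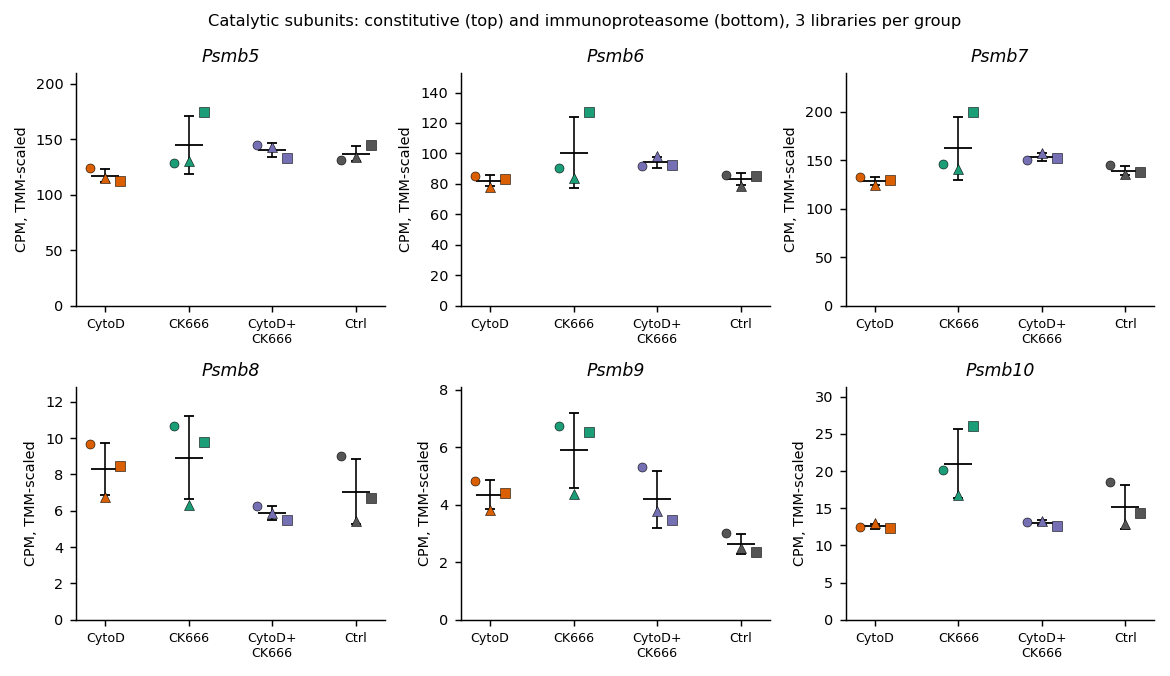
TMM-scaled CPM per library (y axis, from 0) of the constitutive catalytic subunits Psmb5, Psmb6 and Psmb7 (top) and of the immunoproteasome subunits Psmb8, Psmb9 and Psmb10 (bottom) in the 4 groups, with mean and SD bars (n = 3) and a symbol per replicate. Psmb9 is above the Ctrl libraries, at 2.37 to 3.01 CPM, in all 9 treated libraries, and the square for CK666 replicate 3 is the highest point in the panels of Psmb5, Psmb6, Psmb7 and Psmb10.

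The activator genes Psme1 and Psme2, neighbours 5912 bases apart on chromosome 14, rose in both CK666 arms. Psme1 had 75.4, 73.5 and 73.7 CPM in CytoD libraries, 82.7, 84.5 and 109.5 CPM in CK666 libraries and 79.2, 91.5 and 88.7 CPM in CytoD+CK666 libraries, against 69.6, 56.2 and 61.2 CPM in Ctrl libraries. All treated libraries were above the Ctrl ones. CK666 raised it 1.48-fold (log2 0.57 ± 0.11, adjusted p = 0.00128) and both compounds 1.39-fold (0.47 ± 0.11, adjusted p = 0.00343), while the 0.25 of CytoD did not pass. In 3 of 20 other settings its CytoD change was called higher. Its row overlaps that of Fam158a, and reads of overlapping rows may not be told apart. Psme2 was at 66.9, 63.3 and 61.7 CPM in CytoD libraries, 87.4, 92.2 and 126.2 CPM in CK666 libraries and 86.7, 95.6 and 96.3 CPM in CytoD+CK666 libraries, against 72.5, 66.7 and 65.8 CPM in Ctrl libraries. Here CytoD overlapped Ctrl (log2 change -0.10), and the CK666 arms lay above both, at 0.58 ± 0.12 (adjusted p = 0.00158) for CK666 and 0.44 ± 0.12 (adjusted p = 0.00704) for both compounds. Without CK666 replicate 3 the CK666 changes were 0.38 for Psme1 and 0.35 for Psme2, still called.

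Psme3 encodes the nuclear activator that does not depend on interferon. It had 93.3, 89.4 and 89.7 CPM in CytoD libraries, 107.9, 120.3 and 128.5 CPM in CK666 libraries and 130.1, 130.6 and 128.6 CPM in CytoD+CK666 libraries, against 106.2, 101.7 and 106.2 CPM in Ctrl libraries. CytoD alone lowered it (log2 change -0.21 ± 0.07, adjusted p = 0.0342), both compounds raised it (0.31 ± 0.07, adjusted p = 0.00277), and the 0.18 of CK666 did not pass and was 0.08 without CK666 replicate 3. The CytoD call was lost in 7 of 20 other settings and that of both compounds in 0. The CK666 change was called higher in 1. Psme4, a large activator that caps the core as a single chain, was at 149.7, 149.6 and 149.7 CPM in CytoD libraries, 183.3, 178.6 and 148.0 CPM in CK666 libraries and 178.4, 186.9 and 191.3 CPM in CytoD+CK666 libraries, against 176.0, 164.3 and 164.0 CPM in Ctrl libraries. None of its changes against Ctrl passed in the main fit, although every CytoD library was below and every CytoD+CK666 library above every Ctrl library. Of 20 other settings, it was called lower under CytoD in 3, higher under both compounds in 2 and higher under CK666 in 1. Its CK666 change was 0.02, and 0.06 without CK666 replicate 3. In this gene, which has one of the longer transcripts, CK666 replicate 3 was the lowest of its group.

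**Figure D5:**
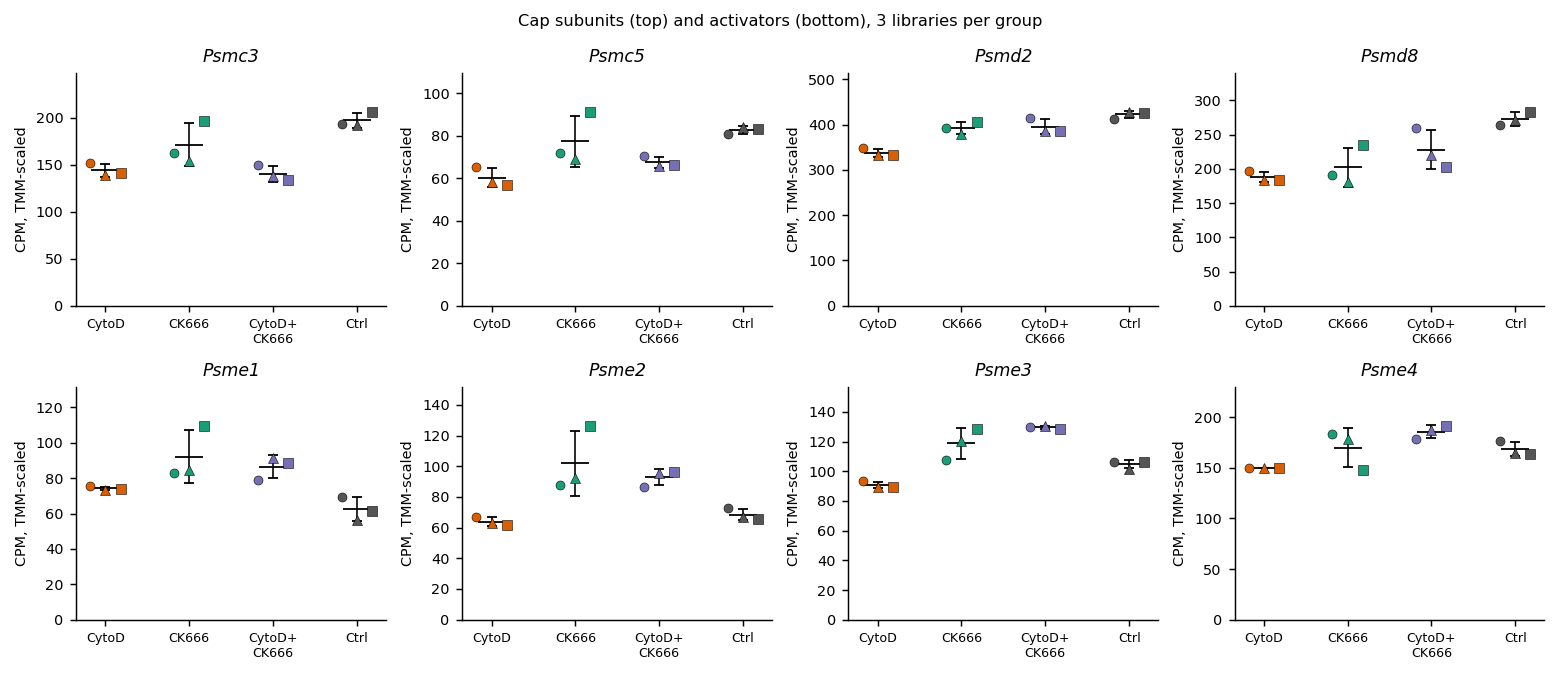
TMM-scaled CPM per library (y axis, from 0) of the cap subunits Psmc3, Psmc5, Psmd2 and Psmd8 (top) and of the activators Psme1, Psme2, Psme3 and Psme4 (bottom) in the 4 groups, with mean and SD bars (n = 3) and a symbol per replicate. CytoD libraries lie below all Ctrl libraries in the 4 cap panels, and CytoD+CK666 libraries lie above them for Psme1, Psme2, Psme3 and Psme4.

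Set against CytoD alone, CK666 added to CytoD raised members of each part of the particle. In CytoD+CK666 against CytoD cells 13 members rose and none fell, or 27.1% against a background of 30.1% (15.8% higher, 14.3% lower). The members' median change was 0.21, against 0.02 over all genes. The rises were Psma1, Psma5 and Psmb3 in the core, Psmc4, Psmd1, Psmd2, Psmd4, Psmd11, Psmd13 and Psmd14 in the cap and Psme2, Psme3 and Psme4 among the activators. The call of Psmc4, the only ATPase among them, was lost in 13 of 20 other settings and that of Psmd14 in 11. Those of Psmd13, Psmd4 and Psmb3 were lost in 6, 4 and 3, and the others in 0. Psme2 had 86.7, 95.6 and 96.3 CPM in CytoD+CK666 libraries, against 66.9, 63.3 and 61.7 CPM in CytoD libraries (log2 change 0.54 ± 0.12, adjusted p = 0.00373). Psme3 was 1.43-fold higher (0.515 ± 0.07, adjusted p = 0.000147). Psmb3, a structural beta subunit, had 102.7, 108.5 and 103.7 CPM in CytoD+CK666 libraries, against 84.4, 71.4 and 75.6 CPM in CytoD libraries (0.44 ± 0.13, adjusted p = 0.02). In all 13 genes the CytoD+CK666 libraries lay above the CytoD libraries. Of the 13 genes that fell under CytoD against Ctrl, 7 were among these 13, but both counts use the same CytoD libraries and are given side by side only. The count was 32, 31 higher and 1 lower, without CK666 replicate 3, where the background was 42.2%, and 32 in a fit on the 2 groups alone, again with 42.2%. It was 21 without CK666 replicate 2 (30.8%). A count of 8 was left without CytoD replicate 2 (21.5%), CytoD replicate 3 (21.7%) or CytoD+CK666 replicate 2 (21.1%).

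Set against CK666 alone, the combination had 1 call among the members, or 2.08%, where the background was 11.6% (4.43% higher, 7.17% lower). That gene was Psmb10, at 13.2, 13.3 and 12.6 CPM in CytoD+CK666 libraries, against 20.2, 16.8 and 26.1 CPM in CK666 libraries. It was 1.61-fold lower with no overlap (log2 change -0.69 ± 0.15, adjusted p = 0.0109), and stayed lower without CK666 replicate 3, at -0.49. Without that library 4 members were called, with Psmd7, Psmd8 and Psme3 higher, against a background of 14.8%. The count was 8 without CK666 replicate 2 (18.6%), 3 without CytoD+CK666 replicate 1 (12.1%) and 0 without CytoD+CK666 replicate 3 (5.43%).

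The interaction asks whether CytoD acted differently in the presence of CK666, as the CytoD effect with CK666 minus the CytoD effect without it, on the log2 scale. It was called for 5 members, 4 above and 1 below 0, or 10.4% against a background of 14.3% (6.63% higher, 7.67% lower). Psmd8 had the largest positive value, 0.71 ± 0.15 (adjusted p = 0.00786). Its libraries were at 259.5, 221.0 and 203.4 CPM under CytoD+CK666, 191.4, 180.7 and 234.8 CPM under CK666 and 196.9, 184.0 and 183.1 CPM under CytoD, against 264.3, 271.4 and 283.2 CPM in Ctrl. Each compound alone thus lowered it, while its log2 change under the combination, -0.26, did not pass against Ctrl. Psmd2 (0.34 ± 0.08, adjusted p = 0.0184), Psmd1, a scaffold of the cap (0.28 ± 0.08, adjusted p = 0.0421), and Psme3 (0.33 ± 0.10, adjusted p = 0.0413) were the other positive ones. The calls of Psmd1 and Psme3 were each lost in 12 of 19 other settings, with adjusted p-values of up to 0.116 and 0.108 in edgeR, and that of Psmd2 in 4. Psmb9 was the negative one, at -1.22 ± 0.28 (adjusted p = 0.014): its rise under the combination was smaller than the sum of its rises under each compound on the log2 scale. All 17 cap genes had a fitted interaction above 0, of which 3 passed.

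The interaction depended most on CK666 replicate 3. Without that library 25 members were called, 24 above 0 and Psmb9 below it, where the background was 24.7%. Of the cap genes 16 of 17 were then called, all 11 non-ATPases and 5 of 6 ATPases, and 6 of 15 core genes. Psmd8 was then at 0.86 (adjusted p = 0.000248) and Psmb9 at -1.11 (adjusted p = 0.0156). The count fell to 2 without CytoD replicate 2, CytoD replicate 3, Ctrl replicate 2 or Ctrl replicate 3, where the background was 7.99% to 8.13%. It fell to 3 without CytoD replicate 1, CK666 replicate 1 or any 1 CytoD+CK666 library, with a background of 10% to 13.3%. With the gene length correction 15 were called, 14 above 0, against 21.3%.

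Partners of the proteasome outside these symbols were counted from a list of 12, all tested. In CytoD 1 was higher and 4 lower, in CK666 2 higher and 1 lower, and in CytoD+CK666 3 higher and 2 lower. The share called was 41.7% in CytoD, 25% in CK666 and 41.7% in CytoD+CK666, where the background was 37.9%, 41.1% and 46.0%. Without CK666 replicate 3, CK666 had 1 higher and 2 lower. Zfand5, a zinc-finger protein that stimulates the proteasome, rose in all 3 treatments, by 0.36, 0.50 and 0.65 on the log2 scale, and by 0.53 under CK666 without that library. CytoD lowered Uchl5 (-0.33) and Usp14 (-0.31), the deubiquitinases that bind the cap. Pomp, the chaperone that matures the core, and Adrm1, a ubiquitin receptor of the cap, were not called in any treatment. Pomp was at 98.6, 94.4 and 96.9 CPM in CytoD libraries, 106.9, 96.7 and 137.2 CPM in CK666 libraries and 109.0, 105.1 and 101.0 CPM in CytoD+CK666 libraries, against 101.2, 98.9 and 105.8 CPM in Ctrl libraries.

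Of 8 genes of transcriptional control, 3 were higher and 0 lower in CytoD, 1 higher and 2 lower in CK666, and 3 higher and 0 lower in CytoD+CK666. At 37.5% in each, the share called was at or below the background of 37.9%, 41.1% and 46.0%. Leaving out CK666 replicate 3, CK666 had 2 higher and 2 lower. Nfe2l1, the factor that restores proteasome genes after inhibition, had 414.1, 450.1 and 442.5 CPM in CytoD libraries, 352.7, 399.8 and 367.3 CPM in CK666 libraries and 467.8, 512.8 and 492.1 CPM in CytoD+CK666 libraries, against 333.1, 341.7 and 336.0 CPM in Ctrl libraries. It rose under CytoD (log2 change 0.37, adjusted p = 0.000775) and under both (0.54, adjusted p = 2.21e-05), while the 0.15 of CK666 did not pass. In CytoD cells the mRNA of this factor was higher and that of 12 cap genes was lower. A link between them was not tested, and the level of the protein was not measured here. Nfe2l2, the oxidative stress factor, rose in all 3 treatments, by 0.26, 0.29 and 0.36, the CK666 value being 0.27 without CK666 replicate 3.

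In the list of 15 genes of ubiquitin supply and delivery, 0 were higher and 6 lower in CytoD, 6 higher and 0 lower in CK666, and 3 higher and 0 lower in CytoD+CK666. The list had 40%, 40% and 20% called in these treatments, against 37.9%, 41.1% and 46.0% of all genes. The CK666 count was 5 higher and 4 lower without CK666 replicate 3. CytoD lowered the shuttle genes Ubqln4 (-0.45) and Rad23b (-0.38). CK666 raised Sqstm1 (0.60), an autophagy receptor, which was at 0.53 without CK666 replicate 3, still called. The combination raised Ubqln1 (0.69) and Sqstm1 (0.53).

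Antigen processing, the pathway the immunoproteasome feeds, had 4 of 12 genes higher and 4 lower in CytoD, 5 higher and 3 lower in CK666, and 4 higher and 3 lower in CytoD+CK666. That is 66.7%, 66.7% and 58.3% called, beside 37.9%, 41.1% and 46.0% of all genes. The list was chosen with earlier results of these data known, so no enrichment can be read from the difference. Without CK666 replicate 3, CK666 had 4 higher and 3 lower, or 58.3% against 42.4%. Tap1, which shares its promoter region with Psmb9, had 45.01, 45.1 and 47.5 CPM in CytoD libraries, 46.9, 47.5 and 50.7 CPM in CK666 libraries and 44.6, 49.0 and 46.2 CPM in CytoD+CK666 libraries, against 32.2, 30.4 and 30.2 CPM in Ctrl libraries. All treated libraries were above all Ctrl libraries, with log2 changes of 0.57, 0.64 and 0.59 (adjusted p = 2.36e-05, 6.19e-06 and 7.25e-06). Its CK666 change was 0.57 without CK666 replicate 3. Its interaction was negative like that of Psmb9, at -0.62 (adjusted p = 0.00102). In this list the interaction was called for 4 of 12 genes, 2 above and 2 below 0, or 33.3% against a background of 14.3%. Nlrc5, the transactivator of class I genes, rose by 0.93, 0.87 and 0.91. Calr, a chaperone of class I loading, was lower in all 3 treatments, at -0.64, -0.49 and -0.46. Without CK666 replicate 3 the CK666 changes were 0.96 for Nlrc5 and -0.63 for Calr, both still called.

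Of 12 genes of interferon signalling, 2 were higher and 1 lower in CytoD, 3 higher and 2 lower in CK666, and 4 higher and 2 lower in CytoD+CK666. These are 25%, 41.7% and 50% called, against 37.9%, 41.1% and 46.0% of all genes, and without CK666 replicate 3 CK666 had 3 higher and 3 lower. Irf1, the interferon-induced factor that drives Psmb9, was lower under both compounds (-0.32, adjusted p = 0.0181) and was not called under either alone. Socs1, the feedback inhibitor of the pathway, rose by 1.10 under CytoD, 1.06 under CK666, with or without CK666 replicate 3, and 1.10 under both. The 2 chains of the interferon gamma receptor moved apart under CytoD, Ifngr1 at 1.22 and Ifngr2 at -0.52. Ifngr2 was also lower under CK666 (-0.72) and under both (-0.77), called in all 20 other settings of each. Ifngr1 had a mean of 412 CPM in CytoD, 213 in CK666, 237 in CytoD+CK666 and 177 in Ctrl.

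Psmc3ip, the recombination factor matched by its symbol, was at 2.80, 2.92 and 2.82 CPM in CytoD libraries, 3.35, 3.64 and 3.19 CPM in CK666 libraries and 1.997, 2.31 and 1.55 CPM in CytoD+CK666 libraries, against 3.91, 3.34 and 3.19 CPM in Ctrl libraries. Only the combination passed against Ctrl, with all of its libraries below the Ctrl ones (log2 change -0.83 ± 0.16, adjusted p = 0.000831). Its row overlaps that of Mlx.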

How the data were processed

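The authors deposited a gene table with read counts per gene and library and with RPKM values, per the file headers. Counts were made from CASAVA 1.9 output with TopHat and HTSeq, per the submitters' processing notes. Those notes name the human build hg19, whereas 20834 of 20970 rows matched by name, and 49 of 49 members, overlapped the mouse gene of that name in GENCODE M21 (GRCm38). The authors' RPKM values were not tested; they served to derive each library's total, 1.12 to 1.16 times the sum of its gene counts. Every deposited count was even, so counting error may be larger than the counts imply. The strandedness of counting is not given in the sources used here.

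The main test was edgeR 4.0.16 (R 4.3.3) on the counts of all 12 libraries, with filterByExpr at a minimum count of 10, TMM scaling, a quasi-likelihood fit on the 4 groups and Benjamini-Hochberg adjustment over 13534 genes, called at an adjusted p under 0.05. The script was tested on simulated counts. CPM per kb uses the deposited gene length. Of all members, text names with tests the fixed catalytic and activator genes, the 3 called genes with the largest rise and fall per comparison, the called interactions and set pathway genes; other called members were named after their values were seen, as were the motifs printed, which are 3 of a larger number searched. The members and lists were chosen with earlier results of these data known. A count of 0 was taken to allow up to 3 counts, 0.0433 to 0.0613 CPM by library, for counting error only. As every deposited count was even, this allowance may be too small. No member was at 0. No 2 libraries of a group agreed within sampling noise. Some set pathway genes and motifs are not reported here. Alternatives were RLE size factors, DESeq2 1.42.0, no filter, the 2 groups alone, a replicate block, halved counts, removal of Rn45s, a gene length correction and each library left out. Counts of the pathway lists without CK666 replicate 3 were chosen after seeing the data.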

Additional observations from a re-analysis of the deposited data

Results flagged for a closer look

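Results are given here because the effect of CytoD differed with and without CK666 by an interaction term of the edgeR fit with Benjamini-Hochberg adjustment over all genes. On the log2 scale, the CytoD effect with CK666 minus that without it was 0.28 for Psmd1, 0.71 for Psmd8, 0.33 for Psme3, 0.335 for Psmd2, -1.22 for Psmb9 and -0.62 for Tap1. The members are all those called. Tap1 was added by choice, and other called interactions of the pathway lists are not given here. In its antigen processing list, 2 of 12 genes were called above 0 and 2 below it. The calls of Psmd1 and Psme3 were each lost in 12 of 19 other settings, and that of Psmd2 in 4. Each group has 3 libraries, so single libraries were not tested for standing apart from their group.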

How the results depend on the processing

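The same number marks no shared source in the labels, and over all genes tested 4 of 18 same-numbered pairs deviated together at a correlation above 0.1, with r from -0.079 to 0.256. With a replicate block the counts of called members were 13 for CytoD, 13 for CK666 and 12 for CytoD+CK666 against Ctrl, 18 for CytoD+CK666 against CytoD, 3 for CytoD+CK666 against CK666 and 6 for the interaction. The sixth is Psmb8, at -0.81 (adjusted p = 0.0185), while its changes under CytoD (0.25) and CK666 (0.34) stayed uncalled.

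Counts that moved by more than 1.5 times were these. For CytoD against Ctrl (14), a fit on the 2 groups gave 25 and a gene length correction 23. The count for CK666 against Ctrl (13) stayed within 1.5 times with the length correction, at 15, but with 7 higher and 8 lower. For CytoD+CK666 against CytoD (13), a fit on the 2 groups gave 32 and the length correction 23. For CytoD+CK666 against CK666 (1), DESeq2, the length correction and the block each gave 3, and the 2 groups alone 0, with 4 to 8 in the fits without CK666 replicate 2 or 3. For the interaction (5), DESeq2 gave 8, no filter 3 and the length correction 15. Leaving out 1 library gave 4 to 26 for CytoD, 9 to 22 for CK666 and 6 to 20 for CytoD+CK666 against Ctrl, 8 to 32 for CytoD+CK666 against CytoD, 0 to 8 for CytoD+CK666 against CK666 and 2 to 25 for the interaction. The causes were not tested, except that fits without a library have fewer samples.

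Over 140 results for single genes and 20 settings, 2786 values were computed, of which 2501 kept direction and side of the threshold, 234 fell below it, 28 passed it and 23 changed sign. All sign changes were in members not called with 12 libraries. The result for Psme4, CK666 vs Ctrl (0.02 with all libraries), turned to -0.0202 with RLE factors, -0.0197 with DESeq2, -0.0167 with halved counts, -0.016 without Rn45s and -0.009 with no filter, and was -0.0418 to 0.0643 with 1 library left out. With the length correction Psmb5 under CK666 turned to -0.182 (adjusted p = 0.0177), Psmb7 under CK666 to -0.0229, Psmb5 under both compounds to -0.0749, and the interactions of Psmb6 and Psme2 to 0.0629 and 0.0987. With 1 library left out, Psmb5 under CK666 ranged over -0.121 to 0.1585, Psmb7 under CK666 over -3e-04 to 0.3127, Psmb5 under both over -0.0256 to 0.0721 and Psmb6 under CytoD over -0.0619 to 0.0142. The interactions then ranged over -0.1884 to 0.1573 for Psmb6, -0.1374 to 0.1683 for Psme2 and -0.0604 to 0.2337 for Psmb7. Psmb9, with 118 to 418 counts per library, and Psmb11, with 12 to 20, are the members whose precision depth limits most.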
